A study of Mus musculus with 9 samples.

Results

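Integrins and laminins are the paired receptor and ligand families by which cells hold on to basement membranes. The set described here holds the 37 protein-coding genes, of 49315 gene IDs in the count table, whose symbols are those of an integrin α chain (18 genes), an integrin β chain (8 genes) or a laminin chain (11 genes). The rule reads symbols and uses no values, though the families were picked with earlier results of these data known. SB28, a mouse glioblastoma line that expresses GFP, had been grown for 2 days at 1:1 with primary neonatal astrocytes from C57BL6 mice carrying the mito::mKate2 transgene, which puts a red fluorescent protein in mitochondria and has a CAG promoter by its stock name. All cells shared a DMEM F12 medium with a low share of serum, N2 supplement, EGF and FGF, had no other treatment, and were sorted from 3 co-cultures into SB28 cells without astrocyte mitochondria (mKate2-), SB28 cells with them (mKate2+) and astrocytes, giving 3 libraries each. Neither SB28 cells nor astrocytes grown alone are among the libraries used here, so each group is known only in co-culture, and SB28 is a single line. The written sort gates contradict the rest of the description. They give CellTrace Violet to both tumor populations although the astrocytes were stained with this dye, call those populations negative for GFP although SB28 expresses it, and mark the astrocytes as lacking mKate although they carry the transgene, so the group of each library is that of its name.

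Each integrin is a dimer of 1 α and 1 β chain, and the pair sets what it binds. The β1 chain joins most α chains, αv also joins β3, β5, β6 and β8, and α6 is the usual partner of β4. The chains α3, α6 and α7 with β1, and α6 with β4, bind laminin. The chains α1, α2, α10 and α11 with β1 bind collagen, while α5, α8, αv and αIIb read the RGD motif of fibronectin, vitronectin and related ligands. Laminins are trimers of an α, a β and a γ chain, made by many cells and deposited in basement membranes, which in the brain line vessels and the surface beneath astrocyte endfeet. Glioblastoma cells are known to move along these membranes.

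Total counts were 24454561, 32707569 and 35135662 in astrocyte replicates 1 to 3, 27187348, 35891589 and 29839630 in mKate2- replicates 1 to 3, and 36051914, 39287841 and 34175016 in mKate2+ replicates 1 to 3. Levels are given as CPM, the count scaled to a common library total, in the order of replicates 1 to 3, and levels of different integrin or laminin genes are compared only as CPM per kb of exonic length; marker lists are summed and ranked in plain CPM. The counts are per gene and do not separate splice forms. In bulk libraries such as these, fewer cells of a type and less RNA per cell cannot be told apart. Fold changes, standard errors (SE) and adjusted P values come from edgeR's quasi-likelihood test with Benjamini-Hochberg adjustment over all genes tested. Against astrocytes, a gene was called higher or lower if its adjusted P value was under 0.05 and its log2 fold change exceeded 1 in size.

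Most astrocyte markers separated the sorted groups, with a difference among the astrocyte libraries. Slc1a3, the glial glutamate transporter, stood at 173, 177 and 236 CPM in astrocytes and at 0.56 to 2.38 CPM in the 6 SB28 libraries. Apoe, the main lipid carrier of astrocytes, stood at 264, 260.3 and 270.2 CPM in astrocytes and at 1.96 to 3.22 CPM in SB28. Of the 10 astrocyte markers, 9 exceeded 5 CPM in astrocytes, and S100b was at most 2.16 CPM in any library. Gja1, a gap junction gene, was higher in SB28 (241 to 284 CPM) than in astrocytes (168, 212 and 216 CPM). Astrocyte replicate 3 stood apart. It held more Aqp4 (59.7 CPM, against 5.64 and 6.82), Aldoc (362 CPM, against 55.6 and 33.8) and Slc1a2 (56.8 CPM, against 4.46 and 11.3). It also held more Foxj1, a gene of ciliated ependymal cells (75.9 CPM, against 8.91 and 6.73), and Flt1, a VEGF receptor of endothelial cells (192 CPM, against 5.64 and 12.4, with 47.5 to 60.2 CPM in SB28). The other ependymal markers, Ccdc153 and Tmem212, were at or below 0.655 CPM there, and the endothelial gene Cldn5 was at 0 in all astrocyte libraries. Summed over the 7 endothelial markers the astrocyte libraries held 9.24, 15.4 and 199.9 CPM, nearly all of it Flt1 in replicate 3. Of the 7, 3 were highest in replicate 3, namely Flt1, Cdh5 (0.654, 0.367 and 5.64 CPM) and Kdr (0.0818, 0.367 and 0.854 CPM). Lowest there were Pecam1 (1.02, 0.703 and 0.455 CPM), Ly6c1 (1.68, 0.917 and 0.655 CPM) and Tek (0.164, 0.550 and 0.142 CPM). Over the 3 ependymal markers the sums were 9.16, 6.85 and 76.6 CPM, nearly all Foxj1.

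Marker genes of further cell types ranged from absent to abundant, with Olig1, Olig2, Col1a1 and Col1a2 abundant in all astrocyte libraries. Of 12 microglial markers, 9 were below 1 CPM in all libraries, and Tmem119, the most abundant, was higher in SB28 (47.3 to 61.1 CPM) than in astrocytes (39.1, 24.8 and 30.5 CPM). The lysosomal gene Cd68 was higher in astrocytes (15.7, 17.9 and 6.69 CPM) than in SB28 (at most 3.54 CPM), and P2ry12 reached 2.54 CPM in astrocyte replicate 2. The leukocyte gene Ptprc was at most 0.293 CPM. Of the 9 markers of the oligodendrocyte lineage, 4 exceeded 5 CPM in astrocytes. The transcription factors Olig1 and Olig2 were at 541, 241 and 304 CPM and at 268, 159 and 155 CPM there. Cspg4 stood at 26.9, 19.3 and 22.6 CPM in astrocytes and at most 4.78 CPM in SB28. Pdgfra stood at 10.3, 23.3 and 23.7 CPM in astrocytes and at 8.20 to 13.9 CPM in SB28. Sox10 was at most 0.0612 CPM and Mog at most 0.221 CPM in any library. The 8 mural and fibroblast markers summed to 1411, 1492 and 1056 CPM in astrocytes and to 538 to 809.8 CPM in SB28, with Col1a2 the most abundant, while Lum was at most 0.512 CPM. The 4 neuronal markers summed to 11.3 to 13.9 CPM in astrocytes and 19.3 to 25.5 CPM in SB28, with Rbfox3 at 0 throughout. Whether cells of these types had a part in the levels below was not tested.

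Promoter sequences show how differently the members' start sites are built. RefSeq promoter windows on GRCm38.p6, 250 bases before to 50 bases after a start, were at hand for 23 of the 37 genes, in 26 windows. The median number of CG pairs in the 250 bases before the start was 10 in these windows and 6 in all 32851 windows, whose middle range was 2 to 16. The GC box GGGCGG, searched on both strands, was found in 12 of the 26 windows and in 35.7% of all, and TATAAA, searched on both strands, in 0 of the 26 and in 13.6% of all. The letters of GGGCGG contain a CG pair, so the first counts are not independent. The 150 bases before the start are shown for 4 genes picked as single examples of patterns described below, with each CG in capitals. They are Itgb1, at like levels in all groups; Lama5, the leading laminin α chain; Itga4, almost absent from SB28; and Itga10, higher in SB28.
Itgb1 (GRCm38, chr8:128685504-128685653, + strand, 16 CG pairs): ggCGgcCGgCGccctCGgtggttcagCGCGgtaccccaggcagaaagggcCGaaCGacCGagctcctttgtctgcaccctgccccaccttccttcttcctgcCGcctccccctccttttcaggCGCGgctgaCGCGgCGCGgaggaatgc
Lama5 (GRCm38, chr2:180225860-180226009, - strand, 12 CG pairs): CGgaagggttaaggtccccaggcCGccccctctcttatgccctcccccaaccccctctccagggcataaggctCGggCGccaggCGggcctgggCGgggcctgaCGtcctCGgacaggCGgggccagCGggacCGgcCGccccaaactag
Itga4 (GRCm38, chr2:79255276-79255425, + strand, 6 CG pairs): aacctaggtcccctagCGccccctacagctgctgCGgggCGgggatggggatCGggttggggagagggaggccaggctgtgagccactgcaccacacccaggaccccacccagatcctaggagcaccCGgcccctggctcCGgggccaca
Itga10 (GRCm38, chr3:96645434-96645583, + strand, 1 CG pair): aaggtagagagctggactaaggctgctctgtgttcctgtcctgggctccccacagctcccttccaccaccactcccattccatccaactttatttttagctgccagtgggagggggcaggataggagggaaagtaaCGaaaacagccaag
The sequence of Itgb1 holds the most CG pairs of the 4 and that of Itga10 the fewest. Within these 150 bases GGGCGG, in either orientation, occurs 3 times before Lama5, once before Itga4 and not before Itgb1 or Itga10. The longer window of Itgb1 did hold it. Genes of like pattern differed: in the 250 bases before the start Itga4 had 6 CG pairs, and Itga8 and Itga11, also almost absent from SB28, had 18 and 12. Whether promoter sequence goes with level was not tested.

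Of the 37 genes, 28 passed the filter on low counts (2 or more of the 6 libraries compared had to exceed 1 CPM) in each comparison with astrocytes. In mKate2- SB28, 4 of them were higher than in astrocytes (Itga6, Itgb7, Itga10 and Itgb3), where 11.5% of all 13356 genes tested were higher, and 12 were lower, where 22.4% of all genes were lower. In mKate2+ SB28, the same 4 were higher, where 12.2% of all 13342 genes tested were higher, and 11 were lower, where 22.8% of all genes were lower. Of the 12 lower genes, 7 had passed the filter through the astrocyte libraries alone (Itga4, Itga8, Itga9, Itga11, Itgb2, Lama2 and Lama3), so a difference was built into their being tested; in mKate2+ cells this held for 6, the same genes without Itgb2. The lower genes that passed the filter on both sides were Itga1, Itgb4, Itgb8, Lama4 and Lamb2. No laminin gene was higher in SB28, and 4 of the 8 tested were lower in each comparison. The median log2 fold change over the 28 genes was -0.73 in mKate2- and -0.64 in mKate2+ cells, against -0.038 and -0.018 over all genes tested. These medians include the genes that passed through the astrocyte libraries alone, so part of the shift was built in. With at least 10 counts required in every library, 22 and 23 members were tested. Their medians were then -0.61 and -0.60, against -0.024 and 0.0042 over all genes. The 2 comparisons share the astrocyte libraries and are therefore given side by side, not as repeats of each other.

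**Figure D1:**
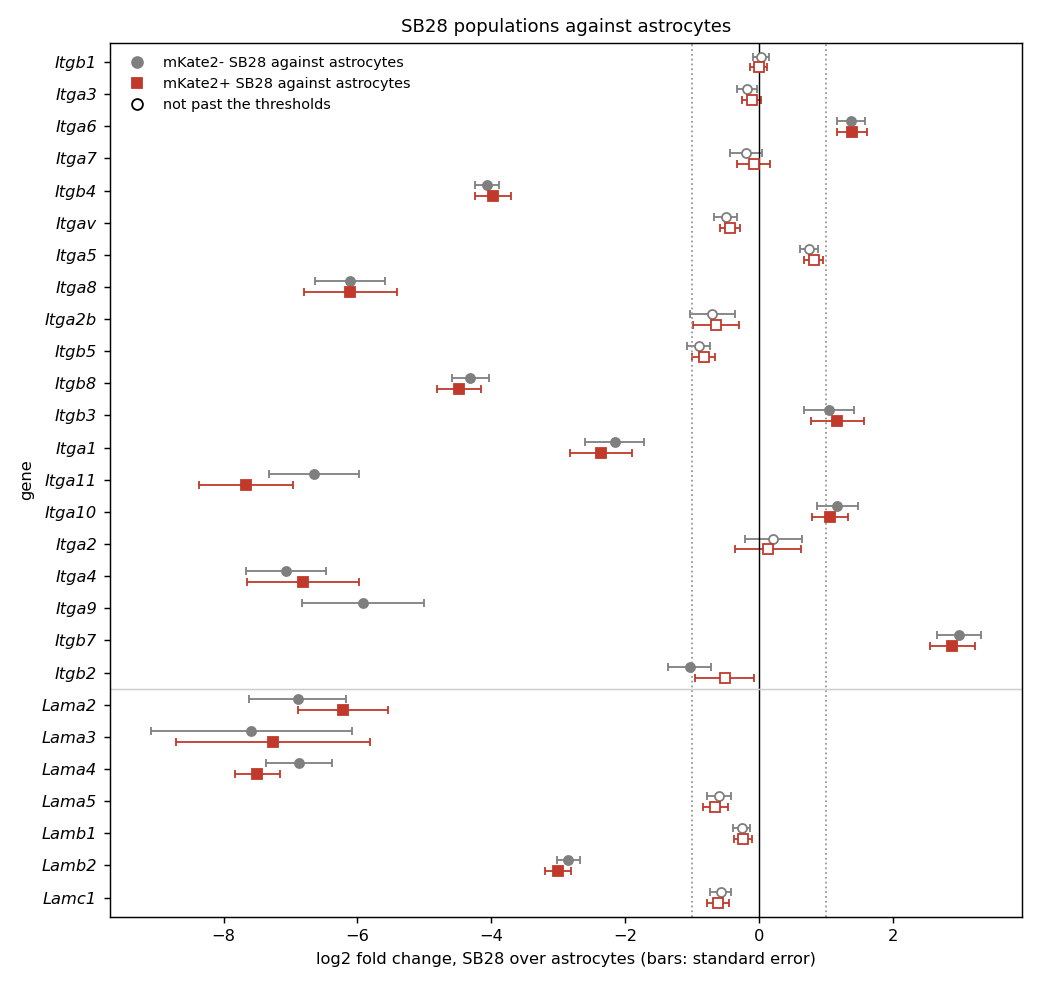
Log2 fold changes of 27 of the 28 genes tested, with mKate2- SB28 (circles) and mKate2+ SB28 (squares) each set against astrocytes; bars are standard errors, filled symbols passed both thresholds, and dotted lines mark log2 fold changes of -1 and 1. Itga6, Itgb7, Itga10 and Itgb3 lie to the right of the thresholds in both comparisons and no laminin gene shown does; the mKate2+ value of Itga9, at 0 counts, is left out.

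The β1 chain was the most abundant integrin transcript per kb in every group with overlapping levels in tumor cells and astrocytes. Itgb1 (chr8:128685654-128733200, + strand) stood at 1665, 1860 and 1730 CPM in mKate2- SB28, at 1798, 1498 and 1655 CPM in mKate2+ SB28 and at 1574, 1761 and 1879 CPM in astrocytes. The 3 groups overlapped. Its log2 fold change against astrocytes was 0.027 (SE 0.121, adjusted P = 0.856) in mKate2- cells and -0.00095 (SE 0.131, adjusted P = 0.995) in mKate2+ cells, and its sign changed with the scaling (-0.053 in mKate2- cells with upper-quartile normalization).

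Among the laminin-binding receptors, SB28 held more α6 and far less β4 than astrocytes, with α3 and α7 within the spread of the libraries. Itga6 (chr2:71745616-71858416, + strand) stood at 478, 523 and 459 CPM in mKate2- SB28, at 542, 427 and 449 CPM in mKate2+ SB28 and at 129, 192 and 248 CPM in astrocytes. All 6 SB28 libraries lay above all 3 astrocyte libraries. The log2 fold change was 1.38 (SE 0.211, adjusted P = 0.000835) in mKate2- cells and 1.40 (SE 0.228, adjusted P = 0.00140) in mKate2+ cells. Itgb4 (chr11:115974709-116008412, + strand), whose product pairs with α6 alone, stood at 3.75, 4.18 and 3.65 CPM in mKate2- SB28, at 4.66, 4.40 and 2.72 CPM in mKate2+ SB28 and at 51.2, 73.5 and 71.8 CPM in astrocytes. It was 16.7-fold lower in mKate2- cells (log2 fold change -4.06, SE 0.177, adjusted P = 5.511e-06) and 15.7-fold lower in mKate2+ cells (-3.98, SE 0.266, adjusted P = 2.66e-05). The α6 chain and its β4 partner thus differed from astrocytes in opposite directions.

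Itga3, which encodes the α3 chain, stood at 371, 458 and 428 CPM in mKate2- SB28, at 428, 412 and 426 CPM in mKate2+ SB28 and at 421, 448 and 567 CPM in astrocytes. The groups overlapped, and the log2 fold changes of -0.18 (SE 0.143, adjusted P = 0.310) and -0.11 (SE 0.140, adjusted P = 0.531) did not pass. Itga7, best known from the laminin receptor of muscle, stood at 32.6, 36.1 and 36.0 CPM in mKate2- SB28, at 38.8, 36.3 and 33.9 CPM in mKate2+ SB28 and at 47.3, 48.0 and 25.6 CPM in astrocytes. Astrocyte replicate 3 lay below all SB28 libraries and the other astrocyte libraries above them. It differed by log2 fold changes of -0.20 (SE 0.2403, adjusted P = 0.499) and -0.076 (SE 0.246, adjusted P = 0.805). Per kb, Itga3 gave 53.3 to 58.2% and Itga6 38.2 to 43.4% of the 3 laminin-binding α transcripts in the SB28 libraries, against 74.3 to 78.6% and 15.2 to 21.1% in the astrocyte libraries. The sum of the 3 was 122 to 143 CPM per kb in SB28 and 93.9, 105.7 and 129.9 CPM per kb in astrocytes, ranges that overlapped.

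**Figure D2:**
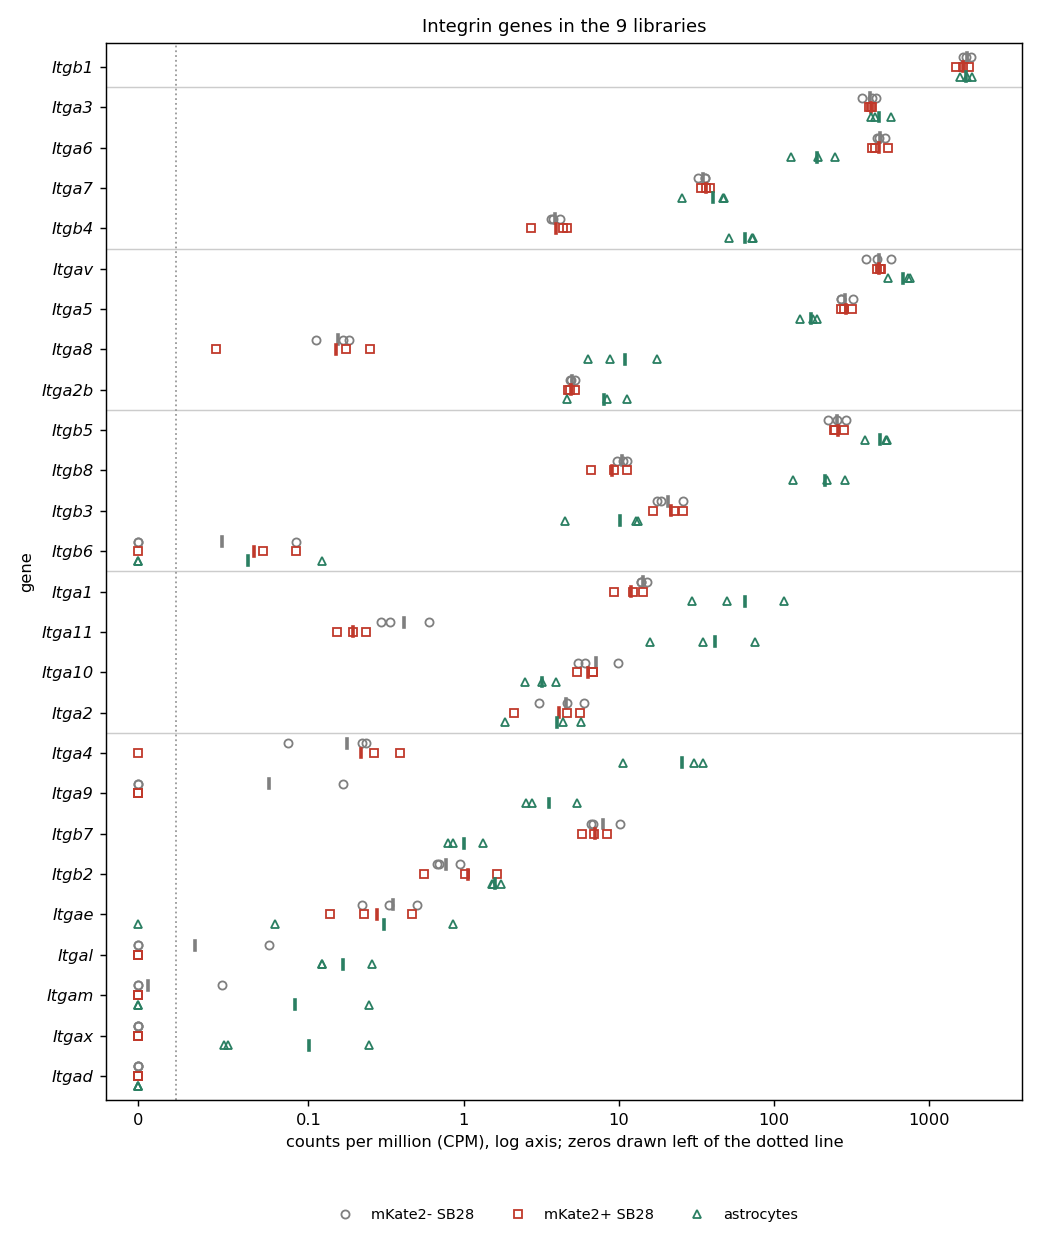
Level of each integrin gene in CPM (log axis, with zeros drawn to the left of the dotted line) in every mKate2- SB28 (circles), mKate2+ SB28 (squares) and astrocyte (triangles) library; vertical bars are group means, and lines separate β1, laminin-binding, RGD-binding, αv-partner, collagen-binding and remaining chains. Itgb1 lies at or above 1498 CPM in all 9 libraries, while Itga4, Itga8 and Itga11 lie below 1 CPM in all SB28 libraries and above 5 CPM in all astrocyte libraries.

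Of the RGD-binding α chains, α5 and αv were abundant in all cells and α8 was a transcript of the astrocyte libraries. Itga5, the α chain of the main fibronectin receptor, stood at 270.3, 323 and 272 CPM in mKate2- SB28, at 319, 281 and 269 CPM in mKate2+ SB28 and at 179.6, 191 and 148 CPM in astrocytes. All SB28 libraries lay above all astrocyte libraries. Its differences of 0.75 on the log2 scale (SE 0.138, adjusted P = 0.00209) and 0.82 (SE 0.141, adjusted P = 0.00186) passed the adjusted P value but not the fold threshold. Itgav, the shared α chain of the vitronectin receptors, stood at 391, 565 and 464 CPM in mKate2- SB28, at 460.3, 481 and 489 CPM in mKate2+ SB28 and at 541, 732 and 756 CPM in astrocytes. The mKate2- and astrocyte ranges overlapped through mKate2- replicate 2. Itgav differed by log2 fold changes of -0.50 (SE 0.176, adjusted P = 0.0386) and -0.43 (SE 0.152, adjusted P = 0.0423), again under the fold threshold.

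Itga8 stood at 0.184, 0.111 and 0.168 CPM in mKate2- SB28, at 0.2496, 0.0255 and 0.176 CPM in mKate2+ SB28 and at 6.30, 8.78 and 17.8 CPM in astrocytes. The log2 fold change was -6.11 in each comparison (SE 0.519 and 0.692, adjusted P = 5.209e-05 and 0.000255), from very few counts in SB28. Because Itga8 passed the filter through the astrocyte libraries alone, a difference was built into its being tested. Itga2b, which encodes the αIIb chain of platelets, stood at 4.89, 4.82 and 5.23 CPM in mKate2- SB28, at 4.74, 5.19 and 4.89 CPM in mKate2+ SB28 and at 11.3, 8.41 and 4.64 CPM in astrocytes. Its groups overlapped through astrocyte replicate 3, and the log2 fold changes of -0.69 (SE 0.332, adjusted P = 0.103) and -0.64 (SE 0.339, adjusted P = 0.139) did not pass.

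The β partners of αv were not alike. Itgb5, of the vitronectin receptor αvβ5, stood at 224, 290.4 and 256 CPM in mKate2- SB28, at 245, 283 and 247 CPM in mKate2+ SB28 and at 537, 526 and 384 CPM in astrocytes. All SB28 libraries lay below all astrocyte libraries, but the log2 fold changes of -0.90 (SE 0.172, adjusted P = 0.00255) and -0.83 (SE 0.175, adjusted P = 0.00488) were under the fold threshold; without astrocyte replicate 3 the former was -1.05 and passed. Itgb8, whose product with αv activates latent TGFβ in the brain, stood at 9.75, 11.3 and 10.7 CPM in mKate2- SB28, at 9.35, 6.59 and 11.3 CPM in mKate2+ SB28 and at 133, 288 and 219 CPM in astrocytes. It was 19.9-fold lower in mKate2- cells (log2 fold change -4.31, SE 0.275, adjusted P = 1.637e-05) and 22.3-fold lower in mKate2+ cells (-4.48, SE 0.326, adjusted P = 3.794e-05).

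Itgb3, of the receptor αvβ3, went the other way. It stood at 18.9, 26.0 and 17.5 CPM in mKate2- SB28, at 22.6, 26.0 and 16.5 CPM in mKate2+ SB28 and at 4.498, 12.9 and 13.2 CPM in astrocytes. Its log2 fold changes, 1.05 (SE 0.375, adjusted P = 0.0401) and 1.17 (SE 0.395, adjusted P = 0.0343), lay close to the threshold. In mKate2- cells the call was lost with upper-quartile normalization (0.97), with at least 10 counts required in every library (0.96), without astrocyte replicates 1 or 2 (0.69 and 1.23) or without mKate2- replicates 1, 2 or 3 (1.12, 0.85 and 1.17). In mKate2+ cells it was lost without astrocyte replicate 1 (0.81) and without mKate2+ replicates 1 or 2 (1.17 and 0.99). Per kb, Itgb5 gave 93.6 to 94.8% of the β3, β5, β6 and β8 transcripts in SB28 and 92.2, 84.0 and 83.1% in astrocytes, where Itgb8 gave 7.33, 14.8 and 15.2%, against 0.704 to 1.40% in SB28.

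The collagen-binding chains α1 and α11 varied widely among the astrocyte libraries. Itga1 stood at 13.9, 15.3 and 13.8 CPM in mKate2- SB28, at 14.3, 9.27 and 12.4 CPM in mKate2+ SB28 and at 29.9, 49.6 and 116 CPM in astrocytes, highest in replicate 3. The log2 fold changes of -2.15 (SE 0.438, adjusted P = 0.00344) and -2.37 (SE 0.463, adjusted P = 0.00337) became -1.46 and -1.69 without astrocyte replicate 3. Itga11, the collagen receptor chain of fibroblasts, stood at 0.294, 0.334 and 0.603 CPM in mKate2- SB28, at 0.194, 0.153 and 0.234 CPM in mKate2+ SB28 and at 34.8, 75.1 and 16.0 CPM in astrocytes, lowest in replicate 3. Its log2 fold changes were -6.65 (SE 0.677, adjusted P = 0.000119) and -7.67 (SE 0.701, adjusted P = 0.000101), and -5.96 and -6.97 without astrocyte replicate 2. Because Itga11 passed the filter through the astrocyte libraries alone, a difference was built into its being tested. Astrocyte replicate 3, with the most Itga1 and the least Itga11, was also the library with the highest Flt1 and Foxj1. Of the 8 mural and fibroblast markers it was lowest for Col1a1 (151 CPM, against 325 and 324) and Col1a2, the 2 with the highest CPM, but highest for 5, all below 3 CPM: Rgs5 (2.73 CPM), Dcn (2.45 CPM), Kcnj8, Abcc9 and Lum. The part of other cell types in this was not tested.

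Itga10, known from cartilage, was higher in SB28. It stood at 6.07, 9.95 and 5.50 CPM in mKate2- SB28, at 6.82, 6.80 and 5.41 CPM in mKate2+ SB28 and at 2.49, 3.21 and 3.93 CPM in astrocytes, with no overlap. The log2 fold changes were 1.18 (SE 0.310, adjusted P = 0.0116) and 1.06 (SE 0.267, adjusted P = 0.0105). The call was lost in mKate2- cells without mKate2- replicate 2 (0.86), and in mKate2+ cells without astrocyte replicate 1 (0.91), without mKate2+ replicate 2 (0.98), with upper-quartile normalization (0.96) and with at least 10 counts in every library (0.97). Itga2 lay between 1.84 and 5.94 CPM in all libraries and was not called. Per kb, Itga10 gave 44.5 to 52.8% of the 4 collagen-binding α transcripts in SB28 and 3.34 to 6.95% in astrocytes. These shares rest on exonic lengths that join the exons of all annotated transcripts, 18599 bases for Itga1 and 5186 for Itga10. If shorter forms of Itga1 were expressed, the share of Itga10 would be lower. Itga11 gave 74.3, 78.9 and 28.7% in astrocytes, where Itga1 gave 57.1% of replicate 3.

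Chains best known from leukocytes were mostly near 0, apart from β7 in SB28 and α4 in astrocytes. Itgb7, which pairs with α4 or αE, stood at 6.88, 10.2 and 6.64 CPM in mKate2- SB28, at 6.96, 8.40 and 5.82 CPM in mKate2+ SB28 and at 0.859, 1.34 and 0.797 CPM in astrocytes. It was 7.96-fold higher in mKate2- cells (log2 fold change 2.99, SE 0.329, adjusted P = 0.000171) and 7.44-fold higher in mKate2+ cells (2.90, SE 0.332, adjusted P = 0.000269). Its α partners were all but missing from SB28. Itga4 stood at 0.0736, 0.223 and 0.235 CPM in mKate2- SB28, at 0.388, 0 and 0.263 CPM in mKate2+ SB28 and at 10.6, 30.7 and 35.0 CPM in astrocytes, and Itgae was at most 0.503 CPM in SB28. The log2 fold changes of Itga4 were -7.08 (SE 0.598, adjusted P = 5.066e-05) and -6.81 (SE 0.837, adjusted P = 0.000365), the latter -7.53 without mKate2+ replicate 1 and -6.21 without mKate2+ replicate 2. Because Itga4 passed the filter through the astrocyte libraries alone, a difference was built into its being tested.

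Itga9, a receptor chain for tenascin and osteopontin, was at 0, 0 and 0.168 CPM in mKate2- SB28, at 0 in all 3 mKate2+ libraries and at 2.78, 2.54 and 5.38 CPM in astrocytes. Its log2 fold change in mKate2- cells was -5.92 (SE 0.913, adjusted P = 0.000871), which rests on replicate 3, since the other mKate2- libraries held no count. It was -5.28 without replicate 2, and without replicate 3 no fold is given, because the mKate2- libraries left were at 0 and a fitted fold then depends on the prior count. Because Itga9 passed the filter through the astrocyte libraries alone, a difference was built into its being tested. In mKate2+ cells a count of 0 allows 3 counts over the group, or 0.0274 CPM. The level was then at least 130.2-fold lower than the astrocyte mean of 3.57 CPM. This limit rests in part on astrocyte replicate 3 and would be lower without it. Itgb2, the shared β chain of the leukocyte integrins, stood at 0.699, 0.947 and 0.670 CPM in mKate2- SB28, at 0.555, 1.02 and 1.64 CPM in mKate2+ SB28 and at 1.55, 1.53 and 1.74 CPM in astrocytes. Its log2 fold change was -1.03 (SE 0.325, adjusted P = 0.0243) in mKate2- cells and -0.51 (SE 0.437, adjusted P = 0.339) in mKate2+ cells. In the comparison of mKate2- cells, Itgb2 passed the filter through the astrocyte libraries alone. The call in mKate2- cells was lost without astrocyte replicate 3 (-0.98), mKate2- replicate 1 (-0.96) or mKate2- replicate 3 (-0.93). With the fold about as large, it was also lost with a replicate block (-1.045, adjusted P = 0.0571), with block and length trend removed (-1.044, adjusted P = 0.0552) and with no filter (-0.979, adjusted P = 0.129). The 9 genes that did not pass the filter, Itgad, Itgae, Itgal, Itgam, Itgax, Itgb6, Lama1, Lamb3 and Lamc3, were at most 0.859 CPM in any library, and Itgad was at 0 in all 9.

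Of the laminin α chains, SB28 held Lama5 almost alone. Lama5 (chr2:180176373-180225859, - strand), whose chain is widespread in basement membranes, stood at 376, 439 and 392.3 CPM in mKate2- SB28, at 396, 329 and 393 CPM in mKate2+ SB28 and at 531, 520.0 and 794 CPM in astrocytes. All SB28 libraries lay below all astrocyte libraries, with log2 fold changes of -0.60 (SE 0.176, adjusted P = 0.0191) and -0.65 (SE 0.184, adjusted P = 0.0173) that were under the fold threshold. Lama4 (chr10:38965515-39110188, + strand), the α chain of vessel and fat basement membranes, stood at 2.02, 1.73 and 5.76 CPM in mKate2- SB28, at 2.80, 1.25 and 1.87 CPM in mKate2+ SB28 and at 419, 405 and 293 CPM in astrocytes. It was 117-fold lower in mKate2- cells (log2 fold change -6.87, SE 0.494, adjusted P = 2.628e-05), or -7.61 on the log2 scale without mKate2- replicate 3, and 181-fold lower in mKate2+ cells (-7.50, SE 0.335, adjusted P = 6.884e-06). The mKate2- library with the highest Lama4, replicate 3, also held the highest levels among SB28 libraries of Slc1a3 (2.38 CPM, the others at most 1.11), Olig1 (6.43 CPM, the others at most 2.75) and Bcam (0.737 CPM, the others at most 0.293). Gfap, Aqp4 and Apoe were also highest in that library, but it did not hold more of every astrocyte marker. Among the 6 SB28 libraries it was the lowest for Aldoc (1.48 CPM, the others 1.72 to 3.07) and S100b (0.067 CPM), was at 0 for Slc1a2 and was second lowest for Aldh1l1 (6.33 CPM). Whether astrocyte RNA contributed to the Lama4 level of SB28 was not tested.

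Lama2, the chain missing in a congenital muscular dystrophy, stood at 0.368, 0.139 and 0.302 CPM in mKate2- SB28, at 0.333, 0.356 and 0.527 CPM in mKate2+ SB28 and at 13.3, 21.6 and 61.3 CPM in astrocytes. It passed the filter through the astrocyte libraries alone, so a difference was built into its being tested. Its log2 fold changes were -6.89 (SE 0.725, adjusted P = 0.000140) and -6.22 (SE 0.669, adjusted P = 0.000205), and -6.03 and -5.37 without astrocyte replicate 3. Lama3, the α chain of epithelial laminin, was carried mainly by that same library. It stood at 0.859, 1.41 and 12.8 CPM in astrocytes, at 0.0368, 0 and 0.0335 CPM in mKate2- SB28 and at 0, 0.0509 and 0.0293 CPM in mKate2+ SB28. These are 2 and 3 counts in all, so the astrocyte level was 260.2-fold the mKate2- level (exact 95% interval 71.7 to 2155) and 205-fold the mKate2+ level (69.6 to 995), intervals that cover counting error only. Both ratios rest mainly on astrocyte replicate 3 and would be far lower without that library, which the intervals do not reflect. Lama3 was called lower in both comparisons (adjusted P = 0.00299 and 0.00374), having passed the filter through the astrocyte libraries alone. It did not pass the filter without astrocyte replicate 2 or 3. Lama1 was at 0 in all 6 SB28 libraries and at 0, 0.245 and 0.541 CPM in astrocytes, so the groups overlapped through astrocyte replicate 1. Against the astrocyte mean of 0.262 CPM, it was at least 8.11-fold lower in mKate2- and at least 9.56-fold lower in mKate2+ cells with 3 counts allowed per group. These limits rest largely on astrocyte replicate 3 and would be lower without it.

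**Figure D3:**
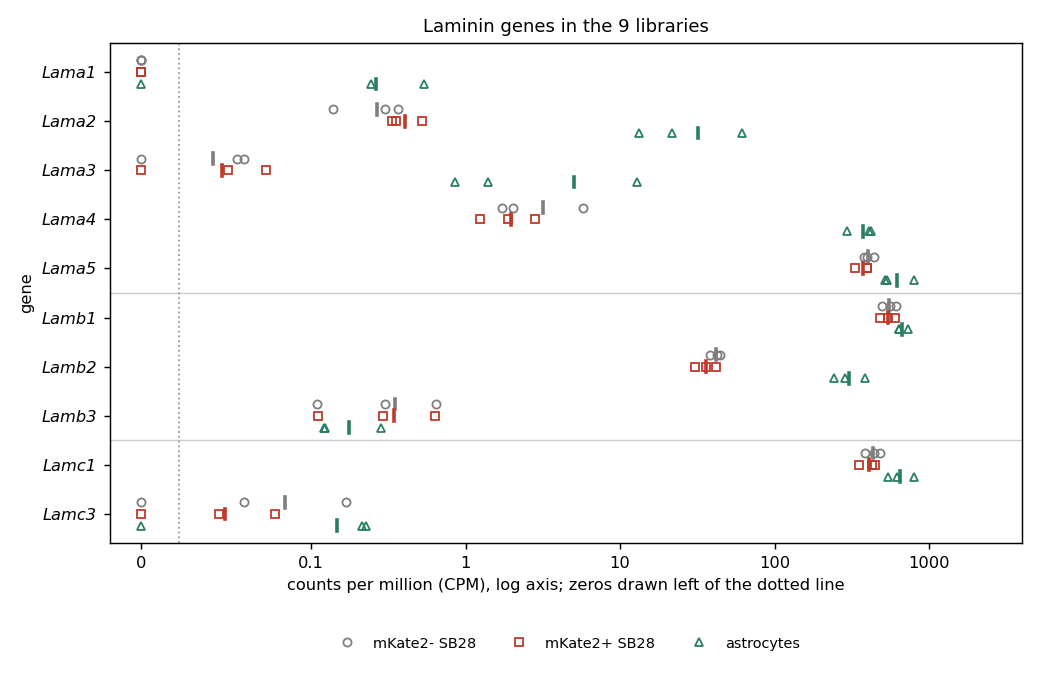
Level of 10 laminin genes in CPM (log axis, with zeros drawn to the left of the dotted line) in every mKate2- SB28 (circles), mKate2+ SB28 (squares) and astrocyte (triangles) library; vertical bars are group means, and lines separate α, β and γ chains. Lama4 lies between 1.25 and 5.76 CPM in SB28 and between 293 and 419 CPM in astrocytes, while Lama5, Lamb1 and Lamc1 lie at or above 329 CPM in all 9 libraries.

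Of the abundant β chains, β2 passed the thresholds and β1 did not. Lamb1 stood at 491, 611 and 555 CPM in mKate2- SB28, at 596, 478 and 541 CPM in mKate2+ SB28 and at 730.1, 636 and 632 CPM in astrocytes. Its SB28 libraries lay just below the astrocyte libraries, and the log2 fold changes of -0.26 (SE 0.134, adjusted P = 0.127) and -0.24 (SE 0.134, adjusted P = 0.161) did not pass. Lamb2 (chr9:108479736-108490530, + strand), the β chain of synaptic and vascular laminins, stood at 38.2, 42.1 and 44.3 CPM in mKate2- SB28, at 41.4, 30.7 and 36.0 CPM in mKate2+ SB28 and at 243, 284 and 381 CPM in astrocytes. It was 7.20-fold lower in mKate2- cells (log2 fold change -2.85, SE 0.173, adjusted P = 1.36e-05) and 7.98-fold lower in mKate2+ cells (-2.996, SE 0.194, adjusted P = 2.322e-05).

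Lamc1, the γ chain of most laminins, stood at 382, 477 and 439.9 CPM in mKate2- SB28, at 443, 352 and 424 CPM in mKate2+ SB28 and at 541, 617 and 793 CPM in astrocytes. The log2 fold changes of -0.57 (SE 0.159, adjusted P = 0.0150) and -0.60 (SE 0.164, adjusted P = 0.0143) were under the fold threshold. All SB28 libraries lay below all astrocyte libraries.

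Seen as shares of each chain class per kb, a single gene led the laminin α and the laminin β class in SB28. Lama5 made up 98.6 to 99.6% of α-chain transcripts in the 6 SB28 libraries, against 56.7, 56.6 and 70.4% in astrocytes, where Lama4 made up 42.2, 41.6 and 24.5%. Lamb1 made up 88.4 to 90.4% of β-chain transcripts in SB28 and 64.8, 57.9 and 50.4% in astrocytes, where Lamb2 made up nearly all the rest. The summed α chains were at 29.0 to 38.7 CPM per kb in SB28 and 82.2, 80.7 and 99.0 CPM per kb in astrocytes. The β chains were at 53.3 to 68.6 against 114, 111 and 126 CPM per kb. Shares of transcripts do not measure which trimers or dimers were assembled.

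**Figure D4:**
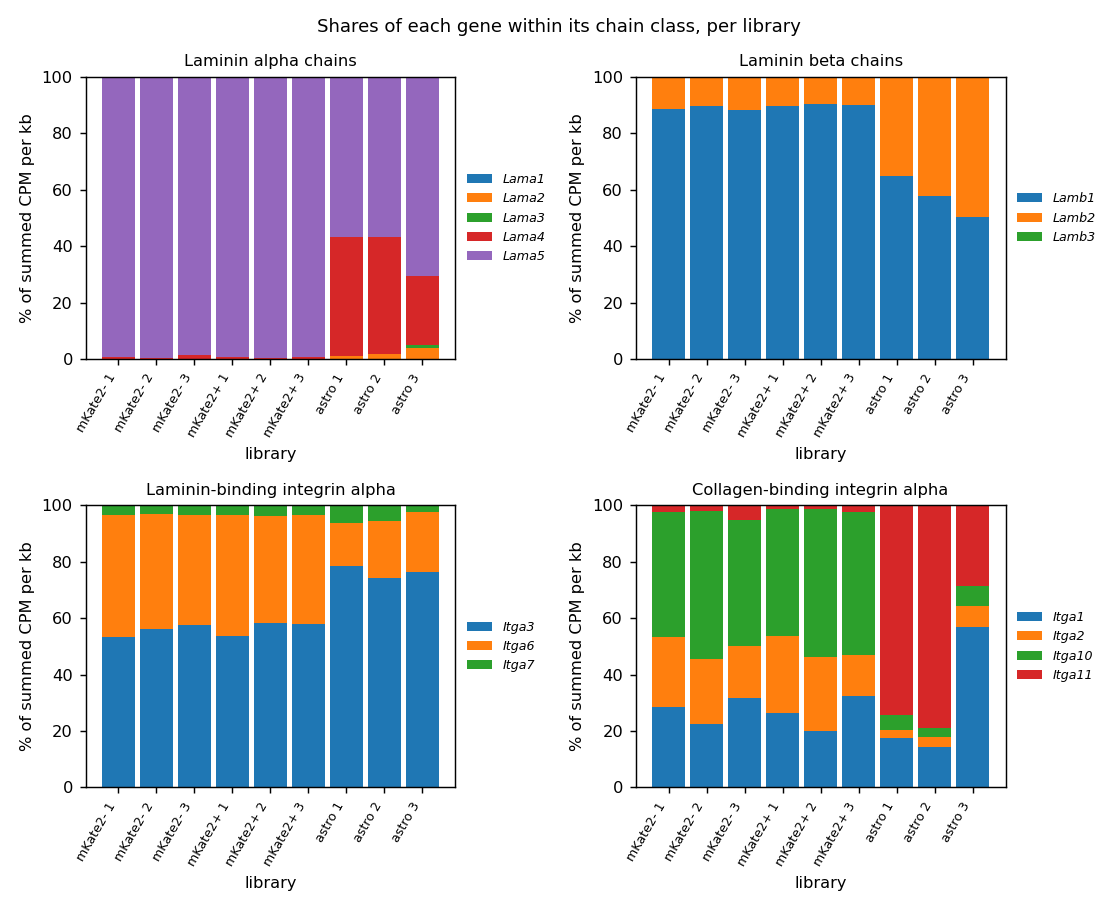
Share of each gene, in percent of the summed CPM per kb of its chain class, in each of the 9 libraries (3 each of mKate2- SB28, mKate2+ SB28 and astrocytes). Lama5 fills 98.6 to 99.6% of the laminin α class in SB28 and 56.6 to 70.4% in astrocytes, and the collagen-binding class of astrocyte replicate 3 differs from that of the other astrocyte libraries.

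The uptake of astrocyte mitochondria was the contrast the study was built on, and no integrin or laminin gene passed its thresholds between mKate2+ and mKate2- SB28. These were adapted from the study's rule for upregulated genes and applied here in both directions: more than 1.5-fold, P under 0.05 with no adjustment, and over 50 counts, taken as a mean over the 6 libraries after normalization. Of 11854 genes tested, 0.194% were higher and 0.169% lower in mKate2+ cells by these thresholds, 2.03% had an unadjusted P value below 0.05, and 0.0% had an adjusted P value below 0.05. Of the 37 genes, 22 were tested, and 0 were higher, 0 lower and 0 at an unadjusted P value below 0.05; DESeq2 also called 0. Log2 fold changes ran from -0.64 for Lama4 (SE 0.489) to 0.51 for Itgb2 (SE 0.423), with Itgb2 tested only because mKate2+ libraries passed the filter, and the median was -0.017 (0.0033 over all genes). The smallest adjusted P value was 0.923.

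The genes with the smallest P values were Itga1 (log2 fold change -0.22, SE 0.145), Lamb2 (-0.16, SE 0.107) and Lama4 (-0.64, SE 0.489), each at an adjusted P value of 0.923 by edgeR. Each of these rested in part on mKate2+ replicate 2, which was the lowest of the 6 SB28 libraries for Itga1 (9.27 CPM), Lamb2 (30.7 CPM) and Lama4 (1.25 CPM). Without it the values were -0.10, -0.098 and -0.42, and those of the 21 genes then tested ran from -0.42 to 0.063. For Lama4 the sign turned without mKate2- replicate 3 (0.10). Library mKate2+ replicate 2 was the lowest of the 6 SB28 libraries for 12 of the 25 genes that reached a mean of 5 CPM in a group and for 5 of the 8 laminin genes among them, where it was lowest for 47.3% of all genes tested. The abundant genes were measured closely. The SE of the log2 fold change was 0.092 for Itgb1, 0.098 for Itga3, 0.105 for Itga6, 0.095 for Lama5 and 0.107 for Lamb1. It was wider for Itga2 (SE 0.383), Itgb2 and Lama4, which had fewer counts and libraries that varied more. The part of each in the SE was not tested.

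**Figure D5:**
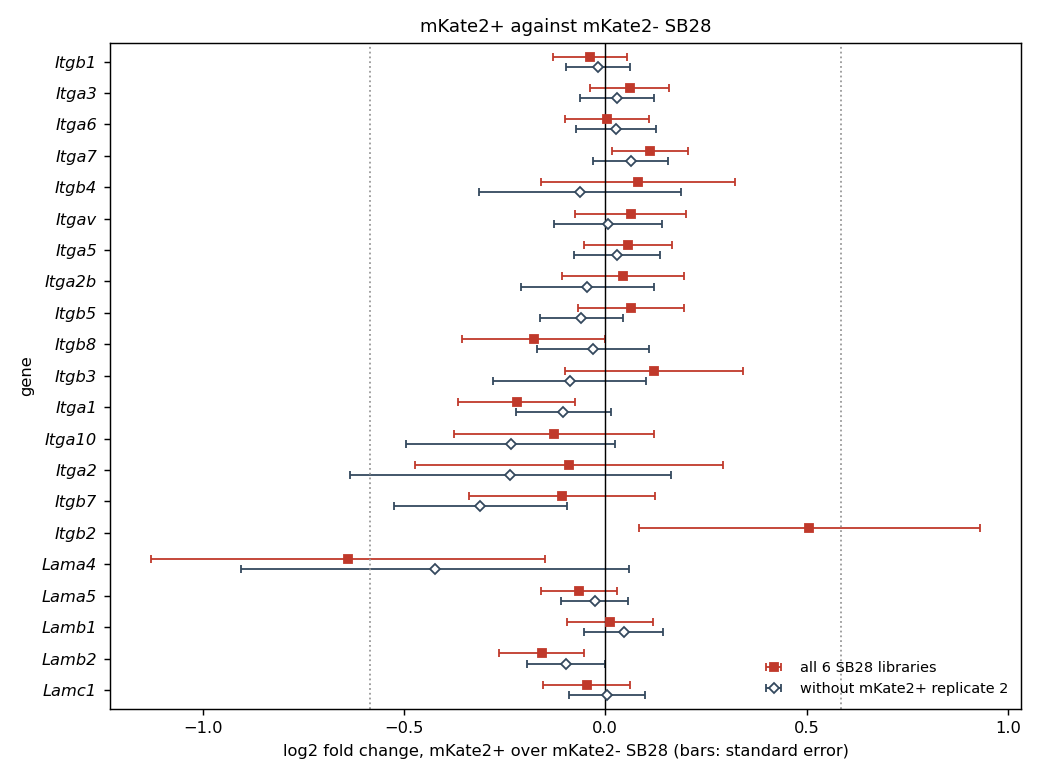
Log2 fold changes of 21 of the 22 genes tested between mKate2+ and mKate2- SB28, with all 6 libraries (filled squares) and without mKate2+ replicate 2 (open diamonds); bars are standard errors and dotted lines mark a fold of 1.5 in either direction. The values lie near 0 for the abundant genes, with the wide bars of Lama4, Itgb2 and Itga2; Itgb2 was not tested without that library.

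The proteins that tie integrins to actin, the laminin neighbours in basement membranes and the further ligands were read from 4 hand-written lists, whose counts stand beside the 11.5% of all genes that were higher and 22.4% that were lower in mKate2- cells, and 12.2% and 22.8% in mKate2+ cells. Of 28 genes of integrin adhesions, 24 were tested, of which 3 were higher and 3 lower in mKate2- SB28 than in astrocytes, with the same counts in mKate2+ cells; the median log2 fold changes were 0.20 and 0.18. The share of higher genes in this list was near that of all genes. The share of lower genes was below it, a difference that was not tested and that depended on the filter. With no filter on low counts, 6 adhesion genes were lower in mKate2+ cells, where 4130 of all 27135 genes tested were lower. Parvb, β-parvin of the integrin-linked kinase complex, averaged 408 ± 14.5 CPM (SD, n = 3) in mKate2- and 415 ± 16.7 CPM in mKate2+ cells against 146 ± 31.3 CPM in astrocytes (log2 fold changes 1.497, SE 0.175, and 1.585, SE 0.181). Tns2, a tensin that links β tails to actin, was at 77.9 ± 5.34 and 66.4 ± 11.2 against 28.0 ± 9.44 CPM (1.497, SE 0.217, and 1.32, SE 0.2397), and Flna, the actin crosslinker filamin A, at 2136 ± 33.7 and 2061 ± 174 against 1021 ± 129 CPM (1.08, SE 0.127, and 1.09, SE 0.143). Tns1 was lower, at 7.19 ± 2.63 and 6.30 ± 1.40 against 68.3 ± 12.4 CPM (-3.23, SE 0.307, and -3.36, SE 0.248). So were the talin-binding adaptor Kank1 (-1.92, SE 0.0986, and -2.09, SE 0.144) and the talin Tln2 (-1.38, SE 0.173, and -1.64, SE 0.217). Tns2 and Tns1 thus differed in opposite directions, and the third tensin listed, Tns3, was not called (-0.65, SE 0.142, and -0.75, SE 0.144). All adjusted P values of these 6 genes were at or below 0.00237 in both comparisons.

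Among the genes of basement membranes, 14 of 17 were tested, and 1 was higher and 8 were lower in mKate2- SB28, against 1 and 9 in mKate2+ SB28; of the lower genes 3, Nid2 among them, passed the filter through astrocytes alone. The medians, which include these 3 genes, were -1.56 in both comparisons. Nid1, a nidogen that bridges laminin and collagen IV, averaged 294 ± 14.3 and 276 ± 51.8 CPM in SB28 against 98.8 ± 44.3 CPM in astrocytes (log2 fold changes 1.59, SE 0.289, adjusted P = 0.00195, and 1.56, SE 0.313, adjusted P = 0.00379). The other nidogen gene, Nid2, averaged 0.493 and 0.434 CPM in SB28 against 66.5 ± 39.9 CPM in astrocytes, with 112 CPM in replicate 3 (-7.06, SE 0.565, and -7.18, SE 0.514). Agrn, agrin, which binds laminin and dystroglycan, was at 86.7 ± 5.91 and 76.5 ± 2.03 against 660.0 ± 62.4 CPM (-2.92, SE 0.133, and -3.04, SE 0.136). Col4a6, a collagen IV chain, was at 1.03 and 0.698 against 157 ± 73.9 CPM, with 241 CPM in astrocyte replicate 3 (-7.23, SE 0.456, and -7.76, SE 0.620). In SB28 it exceeded 1 CPM only in mKate2- replicate 3 (1.575 CPM) and mKate2+ replicate 3 (1.053 CPM). Without the astrocyte libraries it would thus not have met the filter.

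Laminin receptors other than integrins were also read. Of 11 genes, dystroglycan and the enzymes that glycosylate it among them, 11 were tested, 0 were higher and 1 was lower in each comparison. The lower count in mKate2- cells was 3 with upper-quartile normalization, 3 without astrocyte replicate 2, 3 without mKate2- replicate 2 and 2 without astrocyte replicate 1, and in mKate2+ cells it was 0 with at least 10 counts in every library. The called gene was Bcam, which binds the laminin α5 chain, at 36.3, 23.8 and 45.8 CPM in astrocytes and at most 0.737 CPM in SB28 (log2 fold changes -6.51, SE 0.503, adjusted P = 3.489e-05, and -7.23, SE 0.389, adjusted P = 1.162e-05). It passed the filter through the astrocyte libraries alone.

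Of 21 further integrin ligands, 15 were tested, and 1 was higher and 8 were lower in each comparison. Of the lower genes 2, Icam1 and Tnr, passed the filter through astrocytes alone. The medians, which include these 2 genes, were -1.30 and -1.36. Thbs2, thrombospondin 2, was higher, at 561 ± 41.4 and 529 ± 94.0 against 230.3 ± 89.1 CPM (1.305, SE 0.241, adjusted P = 0.00214, and 1.275, SE 0.263, adjusted P = 0.00424). Ccn1, a matricellular ligand of αv and α6 integrins, was lower, at 219 ± 23.8 and 191 ± 3.10 against 587 ± 73.1 CPM (-1.41, SE 0.133, and -1.55, SE 0.131). Icam1, the ligand of β2 integrins, and Tnr, a tenascin of the brain, averaged 9.71 and 9.93 CPM in astrocytes and at most 0.162 CPM in either SB28 group. Fn1, fibronectin, named here after its values were seen because it is the ligand of α5β1, stood at 649 to 926 CPM in SB28 and at 2963, 3273 and 5552 CPM in astrocytes, and was among the lower genes. Its receptor chain Itga5 was not called, with log2 fold changes of 0.75 and 0.82 under the fold threshold, though all SB28 libraries lay above all astrocyte libraries. In the comparison of mKate2+ with mKate2- SB28, 0 genes of the 4 lists were called, and Zyx, the adhesion gene zyxin, was the 1 gene with P under 0.05 before adjustment (log2 fold change 0.18, SE 0.0748).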

How the data were processed

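The deposited values are counts of reads per gene that the authors made from paired-end RNA-seq reads and did not normalize. Per the labels and the study's methods, reads were trimmed with Trimmomatic 0.36, mapped to GRCm38 with STAR 2.5.2b and counted with featureCounts (Subread 1.5.2). The annotation release and the strand setting are not given in the sources used here, so counts may be affected where genes overlap on opposite strands. Genes that overlap exons of a member on either strand, such as Gm42957 with Itga10 on the same strand, were all below 1 CPM on average. Names, positions and exonic lengths came from GENCODE M21, where 259 gene IDs had no name. The exonic length of a gene joins the exons of all its annotated transcripts, each base counted once.

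Each comparison used its 6 libraries and the genes that exceeded 1 CPM in 2 or more of them, normalized by TMM, in R 4.3.3 with edgeR 4.0.16 (limma 3.58.1). The alternatives were DESeq2 1.42.0, upper-quartile normalization, all genes kept, at least 10 counts in every library, all 9 libraries fitted jointly, a replicate block, removal of a length trend (loess, span 0.3, on log2 CPM with a prior count of 2), both of these together, and each library left out. The alternatives for the 4 lists were added after seeing the data. The procedure was tested on simulated data. The intervals given at low counts express counting error alone. The 3 libraries of a group came from 3 co-cultures, and their counts differed by more than sampling noise.

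The values of 1 member are not reported here. Members with a mean of at least 5 CPM in a group were described by library, the others by range unless called against astrocytes. For mKate2+ against mKate2- cells, members with the 3 smallest P values were named. From each list, up to 3 higher and 3 lower genes were named, ranked by adjusted P value in mKate2- cells against astrocytes. The members, lists and tests were chosen with earlier results of these data known.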

Additional observations from a re-analysis of the deposited data

How the results depend on the processing

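The precision of each value rests on the spread of 3 libraries per group, and genes under about 1 CPM also rest on few counts. Itga6 and Itgb7 kept their calls under all 14 alternatives in both comparisons with astrocytes. The number of members higher than in astrocytes ranged from 2 to 4 when a library was left out, being 2 without mKate2- replicate 2 in mKate2- cells and 2 without astrocyte replicate 1 or mKate2+ replicate 2 in mKate2+ cells. The number lower ranged from 11 to 12 in mKate2- cells and from 10 to 11 in mKate2+ cells, and was 6 in each with at least 10 counts required in every library, since 6 and 5 genes almost absent from SB28 were then not tested. Itgb1 changed sign around 0. In mKate2- cells it was -0.053 with upper-quartile normalization, -0.051 with the minimum of 10 counts, -0.018 with the length trend removed and -0.016 with the block as well, and -0.033 to 0.077 with a library left out. In mKate2+ cells it was 0.059 with no filter and -0.068 to 0.038 with a library left out. Itga3 in mKate2+ cells ran from -0.19 to 0.0050 and Itga7 from -0.34 to 0.059 with a library left out, and Itga7 was 0.062 with block and length trend; Lama4 in mKate2+ against mKate2- cells ran from -0.95 to 0.10. The call of Itgb2 in mKate2- cells was also lost with no filter (adjusted P = 0.129). With no filter the median of all genes moved by -0.168, and with upper-quartile normalization by up to -0.099.

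Among the lists, the adhesion genes higher in mKate2- cells were 5 with block and length trend, and those lower in mKate2+ cells 6 with no filter. Basement membrane genes higher numbered 1 to 2 with a library left out in each comparison. Other laminin receptors lower in mKate2- cells were 3 with upper-quartile normalization, 2 with the minimum of 10 counts and 1 to 3 with a library left out, and 0 in mKate2+ cells with that minimum. Other integrin ligands higher were 2 in each comparison with the block, alone or with the length trend, and 1 to 2 with a library left out. Each group came from 3 co-cultures, but the sources used here do not say that a replicate number marks a co-culture, so pairing by number was not assumed. Correlations of same-numbered deviations ran from -0.147 to 0.251, and 4 of 9 were highest with their own number. With the replicate block 4 members were higher and 11 lower in each comparison with astrocytes, and 0 differed between mKate2+ and mKate2- cells. The call of Itgb2 was lost in mKate2- cells with the block, at a log2 fold change of -1.045 (adjusted P = 0.0571).

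The count of all genes higher and lower in mKate2+ against mKate2- cells, 23 and 20, was 62 and 21 with DESeq2, 224 and 35 with no filter, 53 and 28 with all 9 libraries, 13 and 33 with the block, 13 and 19 with the length trend removed, 11 and 28 with both, 15 and 21 without mKate2- replicate 1, 10 and 28 without mKate2- replicate 2, 310 and 70 without mKate2+ replicate 1, 6 and 16 without mKate2+ replicate 2 and 233 and 36 without mKate2+ replicate 3. No member was called under any of these. Before adjustment, P fell under 0.05 for Itgav with block and length trend and for Itgb2 without mKate2+ replicate 1. The cause of these shifts was not tested.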
